A study of Homo sapiens with 12 samples.

Results

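Semaphorins, plexins, neuropilins, ephrins and EPH receptors, the main families of contact and guidance signals between cells, were followed in RNA-seq libraries of IMR90 ER:RAS cells. Members were the protein-coding genes whose symbols begin with SEMA, PLXN, EFNA, EFNB, EPHA or EPHB, together with NRP1 and NRP2, which gave 54 of the 62069 genes in the count table (19266 of them protein-coding). They were 20 semaphorins, 9 plexins, 2 neuropilins, 9 ephrins and 14 EPH receptors (9 EPHA and 5 EPHB). The rule uses gene symbols and biotypes only.

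Semaphorins are secreted, membrane-spanning or lipid-anchored ligands that signal mainly through plexins, which act on small GTPases and the cytoskeleton, and the secreted class 3 members mostly need a neuropilin as co-receptor. Ephrins are bound to the cell surface, ephrin-A members by a lipid anchor and ephrin-B members by a transmembrane segment, and signal to EPH receptor tyrosine kinases on the neighbouring cell while also passing a signal back into their own cell. Both systems are best known for steering axons and vessels, and in fibroblasts they act on adhesion, spreading and migration.

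IMR90 cells are human lung fibroblasts, and in IMR90 ER:RAS a conditional RAS fusion protein is switched on by 4-hydroxytamoxifen (4OHT), which leads to oncogene-induced senescence. All 4 groups carried ER:RAS, were at passage 13 and were collected at day 5 of induction, after 7 days in culture with a medium change on day 4. The groups were non-induced cells without 4OHT (libraries T, A and C), induced cells with 100 nM 4OHT (T, A and B), and induced cells with the shRNA shXPO7_3 or shXPO7_5 against exportin 7 (T, A and B each), also with 100 nM 4OHT. Per the study's description, both groups without an shRNA against XPO7 were vector-transduced controls. Values below are always given in those letter orders. The sources used here give neither the promoter that drives ER:RAS nor whether the 3 libraries of a group were separate cultures. A p-value here reflects how much libraries varied within their groups, with the spread estimated over all 4 groups together. That variation may be technical only.

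The libraries held 28534141 to 60397769 counts. XPO7, the gene targeted, stood at 135 ± 7.04 CPM (counts scaled to library size with TMM factors, mean ± SD, n = 3) in non-induced cells, 137 ± 8.81 in induced cells, 27.7 ± 1.14 with shXPO7_3 and 52.2 ± 1.62 with shXPO7_5, or 20.3% and 38.2% of the induced level. All 9 fibroblast markers examined were above 1 CPM in each group, led by COL1A1, and their summed level was 24273.7 to 28102.8 CPM in non-induced, 16952.9 to 18417.5 in induced, 17691.8 to 21582.1 in shXPO7_3 and 19238 to 21987 in shXPO7_5 libraries. Among these markers DCN went from a mean of 987 CPM in non-induced to 95.6 in induced cells, and COL1A2 from 7481 to 3351. Only PDGFRA was not lower in induced cells (246 and 253 CPM). Of 5 haematopoietic markers none reached 1 CPM, and the endothelial markers PECAM1 and CDH5 and the epithelial markers SFTPC and SCGB1A1 were at 0 in all libraries. The sum of 5 epithelial markers moved with induction, from 31.2 to 37.7 CPM in non-induced to 2.10 to 2.98 in induced libraries, nearly all of it KRT19, as did that of 6 endothelial markers (14.7 to 15.05 and 9.46 to 10.2, mainly TEK) and that of 4 neuronal markers (17.8 to 22.5 and 29.9 to 33.9, mainly SYT1). Other markers of these lists went the other way. Mean TEK fell from 12.4 to 6.31 CPM, but VWF rose from 2.22 to 3.14, and KDR and CLDN5, both under 1 CPM, were also higher. Mean SYT1 rose from 17.0 to 31.6 CPM, but SNAP25 fell from 2.96 to 0.81, and RBFOX3 and STMN2 were not higher. In the shXPO7_3 and shXPO7_5 libraries the epithelial sum was 1.75 to 2.33 and 2.83 to 3.11 CPM, the endothelial sum 10.8 to 12.05 and 8.94 to 10.0, and the neuronal sum 28.3 to 39.1 and 24.4 to 36.6. The part of these markers in the results was not tested. In bulk RNA, fewer cells that express a gene and less of its RNA per cell cannot be told apart.

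Of the 54 genes, 46 passed the filter on low counts. The other 8 were SEMA3G, SEMA5B, EPHA6, EPHA8, EPHA10, EFNA1, EFNA2 and the read-through gene EFNA4-EFNA3, of which SEMA5B, EPHA8 and EFNA4-EFNA3 had no count in any library and the rest at most 7 counts in a library. Per kilobase of the longest transcript, the highest levels in non-induced cells were those of NRP1 at 87.8 ± 2.50 CPM per kb, PLXNB2 at 55.3 ± 5.93 and SEMA7A at 29.6 ± 2.38, followed by PLXNA1 (19.8 ± 1.88), SEMA3A (19.1 ± 5.74), PLXND1 (18.3 ± 2.12) and EPHA2 (17.9 ± 1.54), neighbours that did not differ beyond their spread. In induced cells the order on the same scale was SEMA7A at 220.1 ± 3.27 CPM per kb, NRP1 at 63.5 ± 2.24, PLXNB2 at 45.5 ± 0.072, SEMA3A at 38.9 ± 3.21, SEMA3C at 31.8 ± 3.83 and EPHA2 at 25.3 ± 0.27. SEMA7A had passed NRP1, and the libraries of neighbours in this order did not overlap.

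The first comparison asked how activation of RAS changed these genes. Of the 46 genes tested, 34 (73.9%) were called between induced and non-induced cells at an adjusted p under 0.05 in edgeR's quasi-likelihood test with Benjamini-Hochberg adjustment, against 50.9% of all 15284 genes tested. There were 10 higher, where 24.8% of all genes were called higher, and 24 lower, where 26.1% were called lower. At a stricter threshold that also asked for a log2 fold change of 1 or more, 8 genes were higher and 13 lower, against 6.78% and 10.1% of all genes. The 3 induced libraries did not overlap the 3 non-induced ones in 34 of the 46 genes tested, 10 higher and 24 lower. These were the 34 called genes. Over all genes tested, 31.8% were higher and 31.4% lower without overlap. The median log2 fold change of the 46 genes was -0.42, and that of all genes -0.0068. With an offset for each library's trend on GC content and length, 14 members were called higher and 24 lower. In that fit 9767 of the 15284 genes were called.

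Of 18 semaphorins tested 17 were called, 5 higher and 12 lower, with SEMA4B the exception. Receptors moved less evenly, with 5 of 9 plexins called (1 higher, 4 lower), 1 of 2 neuropilins (lower), 5 of 6 EPHA receptors (4 higher, 1 lower) and 4 of 5 EPHB receptors (all 4 lower). Only 2 of 6 ephrins were called, both lower. Summed over the family, semaphorin transcripts went from 647 to 770.0 CPM in non-induced to 1548 to 1633 CPM in induced libraries, while the sum of the plexins went from 730.4 to 894 CPM to 639.7 to 662 CPM, that of the neuropilins from 578 to 601 CPM to 433 to 465 CPM and that of the EPHA receptors from 109 to 118 CPM to 183 to 191 CPM. Sums of EPHB receptors (202 to 248 and 200.4 to 206 CPM) and of ephrins (76.2 to 92.6 and 80.6 to 82.2 CPM) overlapped between the groups.

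**Figure D1:**
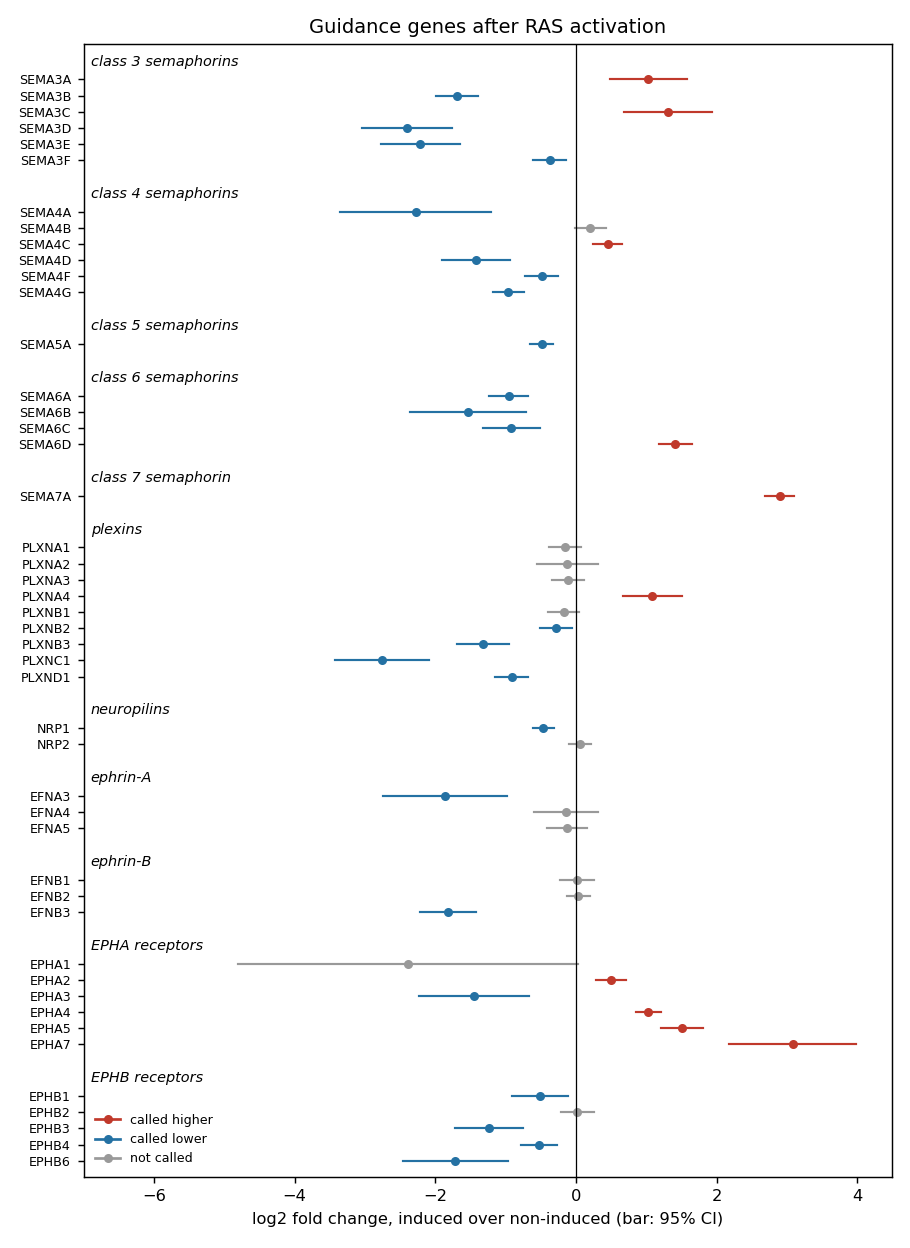
The log2 fold change of induced over non-induced cells (x axis) for the 46 genes tested, grouped by family, with 95% confidence intervals as bars and colour for the call. The 17 called semaphorins spread from -2.40 for SEMA3D to 2.90 for SEMA7A, 4 of the 6 EPHA receptors lay to the right of 0, and 4 of the 5 EPHB receptors lay to the left.

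SEMA7A (ENSG00000138623, chromosome 15), the lipid-anchored class 7 semaphorin, which binds integrins as well as plexin C1, showed the largest gain in CPM. It stood at 109, 97.0 and 93.5 CPM in the non-induced libraries and at 736, 737 and 756 CPM in the induced ones. Every induced library was far above every non-induced one, and the log2 fold change was 2.90 (SE 0.097, adjusted p = 2.42e-10), or 7.45-fold. The gene alone supplied 743 ± 11.04 of the 1604 ± 48.1 CPM of all semaphorins in induced cells, against 99.8 ± 8.02 of 712 ± 61.9 CPM in non-induced cells.

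Its plexin, PLXNC1 (ENSG00000136040, chromosome 12), went the other way from a much lower level. Non-induced libraries held 2.41, 2.31 and 2.21 CPM and induced libraries 0.36, 0.28 and 0.36 CPM, which were 13, 8 and 18 counts. The libraries of the 2 groups were well apart, with a log2 fold change of -2.76 (SE 0.30, adjusted p = 1.03e-05), or 6.76-fold lower. Ligand and receptor therefore had opposite signs, SEMA7A with the highest and PLXNC1 with the lowest fold change among the semaphorins and plexins.

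The promoters of this ligand and receptor pair are shown because their transcripts moved furthest in opposite directions. Each is the RefSeq window of 300 bases on GRCh38.p14, from 250 bases before the transcript start to 50 bases into the transcript, read 5′ to 3′ on the strand of the gene. SEMA7A has windows at chr15:74433909-74434208 (minus strand, 70.0% GC), printed here, and at chr15:74433655-74433954 (minus strand, 77.3% GC), downstream of the first and not printed, and the PLXNC1 windows are at chr12:94148327-94148626 (plus strand, 64.0% GC) and at chr12:94262369-94262668 (plus strand, 53.7% GC), the second of them at an internal start. Capitals mark the AP-1 heptamer TGANTCA, which reads the same on both strands and was searched because AP-1 factors lie downstream of RAS.
SEMA7A upstream start: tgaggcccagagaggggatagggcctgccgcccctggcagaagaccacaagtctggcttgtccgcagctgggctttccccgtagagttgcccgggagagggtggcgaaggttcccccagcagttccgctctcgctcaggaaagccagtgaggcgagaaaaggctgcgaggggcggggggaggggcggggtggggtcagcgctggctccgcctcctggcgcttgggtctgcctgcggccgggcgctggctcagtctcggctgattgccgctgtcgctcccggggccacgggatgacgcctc
PLXNC1 upstream start: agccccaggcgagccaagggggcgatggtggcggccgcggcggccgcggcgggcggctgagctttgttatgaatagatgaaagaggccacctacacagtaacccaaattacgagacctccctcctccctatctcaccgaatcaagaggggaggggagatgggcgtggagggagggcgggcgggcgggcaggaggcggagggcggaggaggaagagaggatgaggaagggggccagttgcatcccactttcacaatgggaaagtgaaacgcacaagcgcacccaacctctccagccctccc
PLXNC1 internal start: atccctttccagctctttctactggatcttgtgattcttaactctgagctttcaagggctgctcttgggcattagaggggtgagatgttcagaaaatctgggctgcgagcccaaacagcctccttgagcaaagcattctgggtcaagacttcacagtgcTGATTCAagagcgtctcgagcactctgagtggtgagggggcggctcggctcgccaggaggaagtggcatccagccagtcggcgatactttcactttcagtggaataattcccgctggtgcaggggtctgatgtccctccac
Of these 4 windows, the SEMA7A window not printed included, the heptamer was present only in that of the internal PLXNC1 start, beginning 91 bases before that start. Among the members with a window in the RefSeq table (48 of 54, with 75 windows), this was the 1 window holding it, or 1.33%, against 2707 of all 35116 windows, or 7.71%. At the stricter threshold, 18 of the 21 genes called had a window, and SEMA3A, SEMA6B and EFNB3 had none. None of the 15 windows of 7 genes called higher held these letters, and 1 of the 20 windows of 11 genes called lower did. Windows of the same gene can overlap, as those of SEMA7A do, and the median GC content of all windows was 58.7%. The difference in share, and the part of base composition in it, was not tested. These letters are a description of the window and not a bound site.

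Class 3 semaphorins, the secreted class, split. SEMA3A (ENSG00000075213), which acts through NRP1 and A-type plexins, rose from 107, 162 and 202 CPM in non-induced to 335, 335 and 289.5 CPM in induced libraries, a log2 fold change of 1.03 (SE 0.25, adjusted p = 0.00469). SEMA3C (ENSG00000075223), which can use either neuropilin, rose from 44.3, 71.2 and 83.9 to 176, 175 and 141 CPM, a log2 fold change of 1.31 (SE 0.29, adjusted p = 0.00238). For both genes the lowest induced library was above the highest non-induced one, although the non-induced libraries varied widely among themselves.

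SEMA3D (ENSG00000153993) fell from 5.38, 9.93 and 11.8 CPM to 2.13, 1.63 and 1.41 CPM, a log2 fold change of -2.40 (SE 0.30, adjusted p = 2.6e-05). SEMA3E (ENSG00000170381), which binds plexin D1 without needing a neuropilin, fell from 4.26, 6.34 and 7.34 CPM to 1.42, 0.92 and 1.45 CPM, a log2 fold change of -2.22 (SE 0.26, adjusted p = 1.56e-05). SEMA3A, SEMA3C, SEMA3D and SEMA3E lie on chromosome 7, and in all 4 the non-induced library T was the lowest of its group and library C the highest, while 2 of them were higher in induced cells and 2 lower. SEMA3B, a chromosome 3 gene known for loss in tumours, fell from 9.49, 10.5 and 8.76 CPM to 2.84, 2.91 and 3.15 CPM (log2 fold change -1.69, SE 0.14, adjusted p = 5.65e-07). SEMA3F, an NRP2 ligand and the remaining class 3 member tested, fell by less, with a log2 fold change of -0.38 (SE 0.11, adjusted p = 0.0104) from a mean of 52.4 CPM to 40.4 CPM.

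Most membrane-spanning semaphorins fell. In class 4, SEMA4D, a plexin B1 ligand first described on immune cells, had 2.26, 2.57 and 1.84 CPM in non-induced and 1.07, 0.67 and 0.75 CPM in induced libraries (log2 fold change -1.42, SE 0.22, adjusted p = 0.000181). SEMA4A was near the limit of detection, with 11, 12 and 20 counts in non-induced and 1, 4 and 4 counts in induced libraries (log2 fold change -2.28, SE 0.49, adjusted p = 0.00197). Both were lower in every induced library than in any non-induced one. SEMA4C, a plexin B2 ligand, was the class 4 member that rose (log2 fold change 0.45, adjusted p = 0.00152), SEMA4F and SEMA4G fell by 0.49 and 0.96 on the log2 scale (adjusted p = 0.00249 and 7.33e-06), and SEMA4B differed by 0.20 (95% interval -0.015 to 0.42, adjusted p = 0.11).

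SEMA5A, which can act through plexin B3, fell from a mean of 192 CPM to 137 CPM (log2 fold change -0.48, adjusted p = 0.000165). Class 6 was divided as class 3 was. SEMA6D, a ligand of A-type plexins, rose from 39.9, 45.1 and 50.1 CPM to 123, 123 and 114 CPM, with close agreement among the induced libraries (log2 fold change 1.42, SE 0.11, adjusted p = 4.28e-07). SEMA6B, at 13, 23 and 19 counts in non-induced and 6, 2 and 12 counts in induced libraries, fell (log2 fold change -1.54, SE 0.38, adjusted p = 0.00469), and so did SEMA6A and SEMA6C, by 0.96 and 0.92 on the log2 scale (adjusted p = 5.86e-05 and 0.00121). SEMA6D therefore stood alone in its class, as the 1 member that rose and the most abundant.

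Among the plexins, PLXNA4, a receptor for SEMA3A and SEMA6 proteins, was the member that rose, from 2.16, 2.04 and 1.36 CPM to 3.498, 4.32 and 4.03 CPM (log2 fold change 1.09, SE 0.19, adjusted p = 0.000533). PLXNB3, a SEMA5A receptor, fell from 8.50, 9.21 and 7.99 CPM to 3.74, 2.91 and 3.57 CPM (log2 fold change -1.32, SE 0.17, adjusted p = 3.55e-05). PLXND1, the SEMA3E receptor, fell from 146, 127 and 116 CPM to 69.0, 67.5 and 69.8 CPM (log2 fold change -0.92, SE 0.11, adjusted p = 1.87e-05), so that SEMA3E and its plexin were lower together. The abundant PLXNB2, a receptor for class 4 semaphorins, fell by 0.28 on the log2 scale (SE 0.10, adjusted p = 0.0354), a call that was lost when any 1 library other than non-induced C was left out, with adjusted p up to 0.142.

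PLXNA1, PLXNA2, PLXNA3 and PLXNB1, receptors that class 3, class 6 and class 4 semaphorins share, were not called, with log2 fold changes between -0.18 and -0.11. NRP1, co-receptor of class 3 semaphorins and of VEGF, fell from 506, 509.8 and 533 CPM to 388, 370.0 and 363 CPM (log2 fold change -0.47, SE 0.069, adjusted p = 0.000121). NRP2 had a mean of 69.4 CPM in non-induced and 72.2 CPM in induced cells and was not called (log2 fold change 0.057, 95% interval -0.11 to 0.22). The neuropilin transcripts of induced cells were thus fewer while those of SEMA3A and SEMA3C were more.

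**Figure D2:**
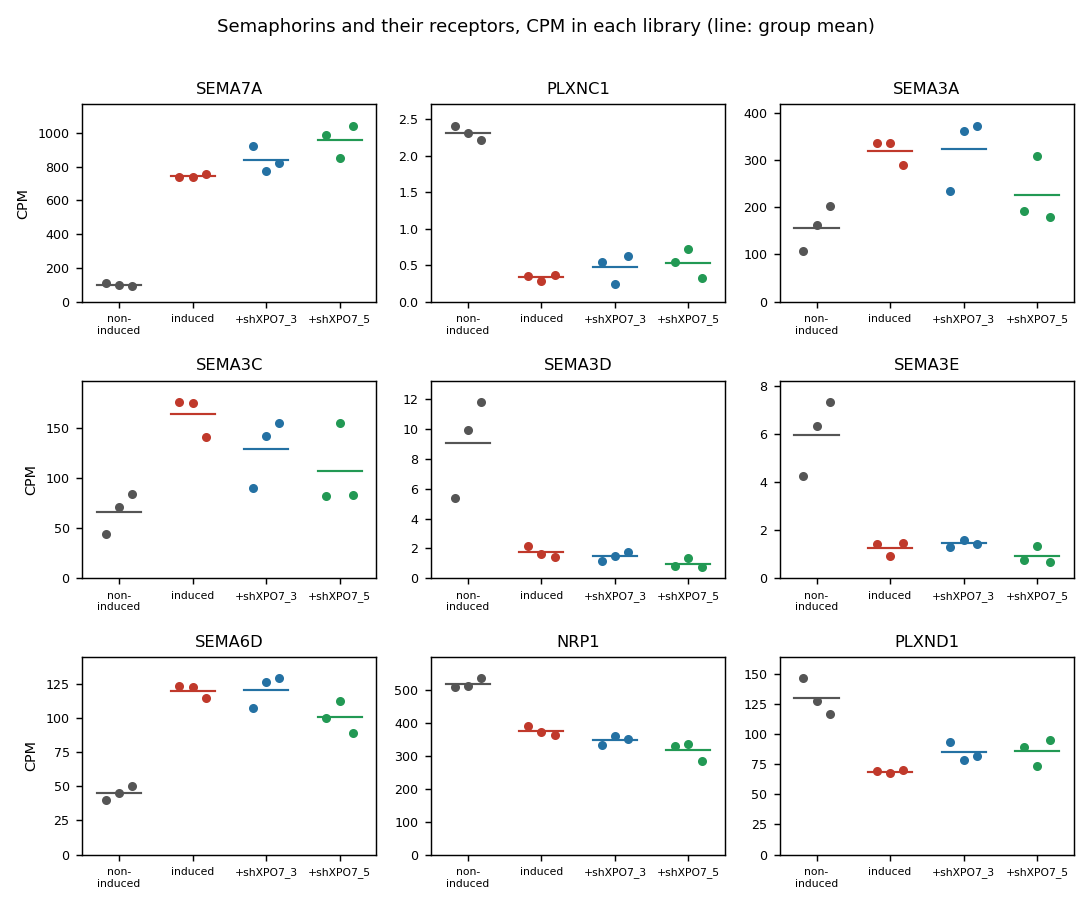
CPM (y axis, from 0) of 9 semaphorin, plexin and neuropilin genes in each of the 12 libraries, in order of replicate letter within each of the 4 groups on the x axis, with a line at the group mean. SEMA7A lay at 736 CPM or more in all 9 libraries with 4OHT and at 109 CPM or less without it, and PLXNC1 lay under 1 CPM with it and above 2 CPM without it.

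The EPHA receptors called higher included the most and the least abundant of the 6 tested in non-induced cells. EPHA2, the receptor best known in epithelial and tumour cells, rose from 76.9, 70.7 and 64.7 CPM to 100.7, 99.0 and 101 CPM (log2 fold change 0.50, SE 0.098, adjusted p = 0.00104). EPHA4, which unlike most EPHA receptors also binds ephrin-B members, rose from 35.8, 39.1 and 39.8 CPM to 81.2, 79.2 and 74.1 CPM (log2 fold change 1.03, SE 0.083, adjusted p = 6.31e-07). Its level about doubled in every induced library, with no overlap between groups.

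EPHA5 and EPHA7, receptors known mainly from the developing nervous system, rose from low levels. EPHA5 went from 1.88, 2.06 and 2.24 CPM to 5.93, 6.06 and 5.61 CPM (log2 fold change 1.503, SE 0.14, adjusted p = 1.81e-06). EPHA7 went from 0.22, 0.24 and 0.26 CPM, which were 7, 10 and 9 counts, to 2.30, 1.84 and 1.98 CPM, which were 84, 52 and 98 counts (log2 fold change 3.08, SE 0.41, adjusted p = 5.42e-05). This was the largest fold change of the 46 genes, 8.45-fold, in a gene that remained under 3 CPM in induced cells.

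EPHA3 was the EPHA receptor that fell, from 0.93, 1.34 and 1.56 CPM to 0.38, 0.46 and 0.54 CPM (log2 fold change -1.44, SE 0.36, adjusted p = 0.00504). EPHA1 was not called (log2 fold change -2.39, 95% interval -4.81 to 0.026, adjusted p = 0.0907). Its negative estimate rested on non-induced library T, which held 70 counts. Non-induced libraries A and C held 6 and 7 counts, and the induced libraries 11, 3 and 3. In CPM, non-induced A and C (0.15 and 0.20) lay within the induced range of 0.061 to 0.30.

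EPHB receptors, which bind mainly ephrin-B members, fell or were not called. EPHB3 fell from 3.24, 3.21 and 2.21 CPM to 1.09, 1.31 and 1.27 CPM (log2 fold change -1.24, SE 0.22, adjusted p = 0.000589). EPHB6, a receptor without kinase activity, fell from 20, 29 and 14 counts to 7, 3 and 10 counts (log2 fold change -1.72, SE 0.34, adjusted p = 0.00115). EPHB4, the receptor of EFNB2 in vessels, fell from 75.2, 73.8 and 63.0 CPM to 48.4, 47.5 and 51.5 CPM (log2 fold change -0.52, SE 0.12, adjusted p = 0.00228). In these 3 genes the groups were apart, whereas the most abundant member, EPHB2, had a mean of 148 CPM in non-induced and 149.6 CPM in induced cells (log2 fold change 0.020, 95% interval -0.21 to 0.25). EPHB1 fell by 0.51 on the log2 scale (SE 0.18, adjusted p = 0.0332), and its call was lost when any 1 library other than induced B was left out, with adjusted p up to 0.122.

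Of the 6 ephrins tested, the ligands of these receptors, 2 were called lower and 4 were not called. EFNB3 fell from 4.33, 3.76 and 2.83 CPM to 1.15, 1.03 and 0.93 CPM (log2 fold change -1.82, SE 0.18, adjusted p = 4.23e-06). EFNA3 fell from 6, 16 and 14 counts to 3, 3 and 4 counts (log2 fold change -1.86, SE 0.40, adjusted p = 0.00211). The more abundant ephrins, EFNB1 at a mean of 34.9 CPM in non-induced and 35.4 CPM in induced cells and EFNB2 at 28.7 and 29.3 CPM, had log2 fold changes of 0.019 and 0.031. EFNA4 and EFNA5 had log2 fold changes of -0.14 and -0.12 and were not called either. With an offset for each library's trend on GC content and length, EFNB1 was called higher (log2 fold change 0.19, adjusted p = 0.00326). Over the 11 genes not called other than EPHA1, 95% intervals ran from -0.60 at the lowest to 0.42 at the highest.

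**Figure D3:**
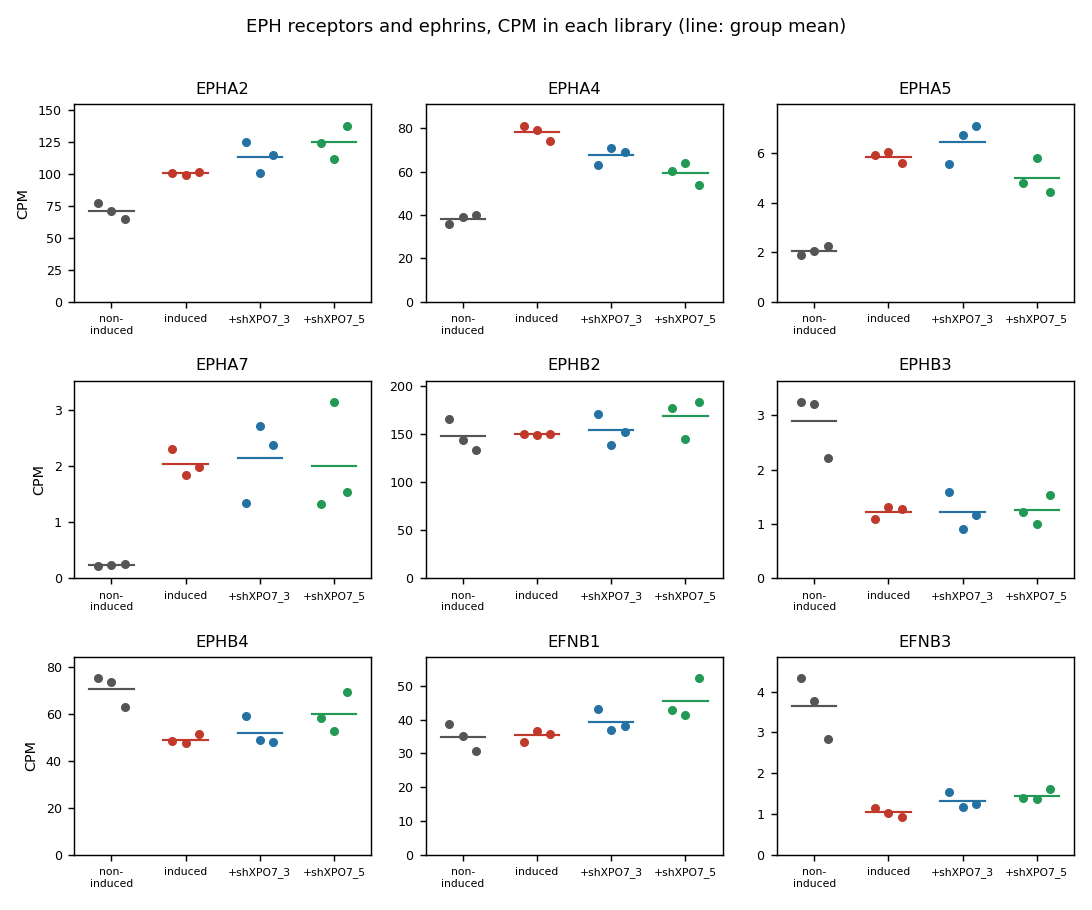
CPM (y axis, from 0) of 9 EPH receptor and ephrin genes in each of the 12 libraries, in order of replicate letter within each of the 4 groups on the x axis, with a line at the group mean. EPHA2, EPHA4, EPHA5 and EPHA7 were higher in every induced library without an shRNA than in any non-induced one, EPHB3, EPHB4 and EFNB3 were lower, and EPHB2 and EFNB1 overlapped.

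Genes that work with these families moved in both directions. Of 51 listed semaphorin partners (co-receptors, GTPase regulators and cytoskeletal effectors), 47 were tested, 12 were higher and 15 lower, with a median log2 fold change of -0.014. FLT1 and its ligand VEGFA, which shares NRP1 with the semaphorins, rose by log2 fold changes of 2.25 (SE 0.12, adjusted p = 9.8e-09) and 1.74 (SE 0.068, adjusted p = 8.25e-10), L1CAM, an adhesion partner of NRP1, by 1.44 (adjusted p = 7.36e-07) and the actin-oxidizing effector MICAL2 by 0.75 (adjusted p = 1.07e-05). RRAS2 and MET, a small GTPase and a receptor kinase that associates with B-type plexins, fell by 1.54 each on the log2 scale (adjusted p = 1.53e-08 and 7.58e-07), the collapsin response mediator DPYSL2 by 1.25 (adjusted p = 9.41e-09) and the plexin B partner ERBB2 by 0.995 (adjusted p = 1.12e-05).

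Of 46 listed partners of EPH receptors and ephrins, 42 were tested, 15 were higher and 11 lower, with a median log2 fold change of 0.12. CHN1, the RAC-GAP chimaerin downstream of EPHA4, rose by a log2 fold change of 1.92 (SE 0.12, adjusted p = 7.6e-08), the phosphatase PTPN12 by 1.01 (adjusted p = 0.000242), the RAP-GAP SIPA1L1 by 0.98 (adjusted p = 9.05e-08) and the RAS-GAP RASA1 by 0.97 (adjusted p = 0.002). KALRN, a GTPase exchange factor downstream of EPHB receptors, fell by 0.72 on the log2 scale (adjusted p = 0.000111), the kinase TNK2 by 0.69 (adjusted p = 0.000216), the adaptor BCAR3 by 0.48 (adjusted p = 0.000239) and RHOA, which is on both lists, by 0.47 (adjusted p = 0.000517). At 27 of 47 and 26 of 42 genes tested, the called shares of these lists were 57.4% and 61.9%, beside 50.9% of all genes tested.

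The next comparisons asked what depletion of XPO7 did to the same genes in RAS-activated cells. Both share the 3 induced libraries, so they are not independent. No member was called by edgeR's quasi-likelihood test for shXPO7_3 (0.124% of all genes were called), for shXPO7_5 (0.589%) or between the shRNAs (0.0131%). At an unadjusted p under 0.05 there were 6, 16 and 9 of the 46 genes, against 6.41%, 21.6% and 11.9% of all genes. DESeq2 called 0 members for shXPO7_3, 3 for shXPO7_5 and 0 between the shRNAs, while it called 0.537%, 3.79% and 0.214% of the genes it tested. The smallest adjusted p of a member in edgeR was 0.306 for shXPO7_3 (SEMA3F), 0.0528 for shXPO7_5 (EPHA4) and 0.388 between the shRNAs. The median log2 fold change of the 46 genes was 0.015 for shXPO7_3, 0.11 for shXPO7_5 and 0.11 between the shRNAs.

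**Figure D4:**
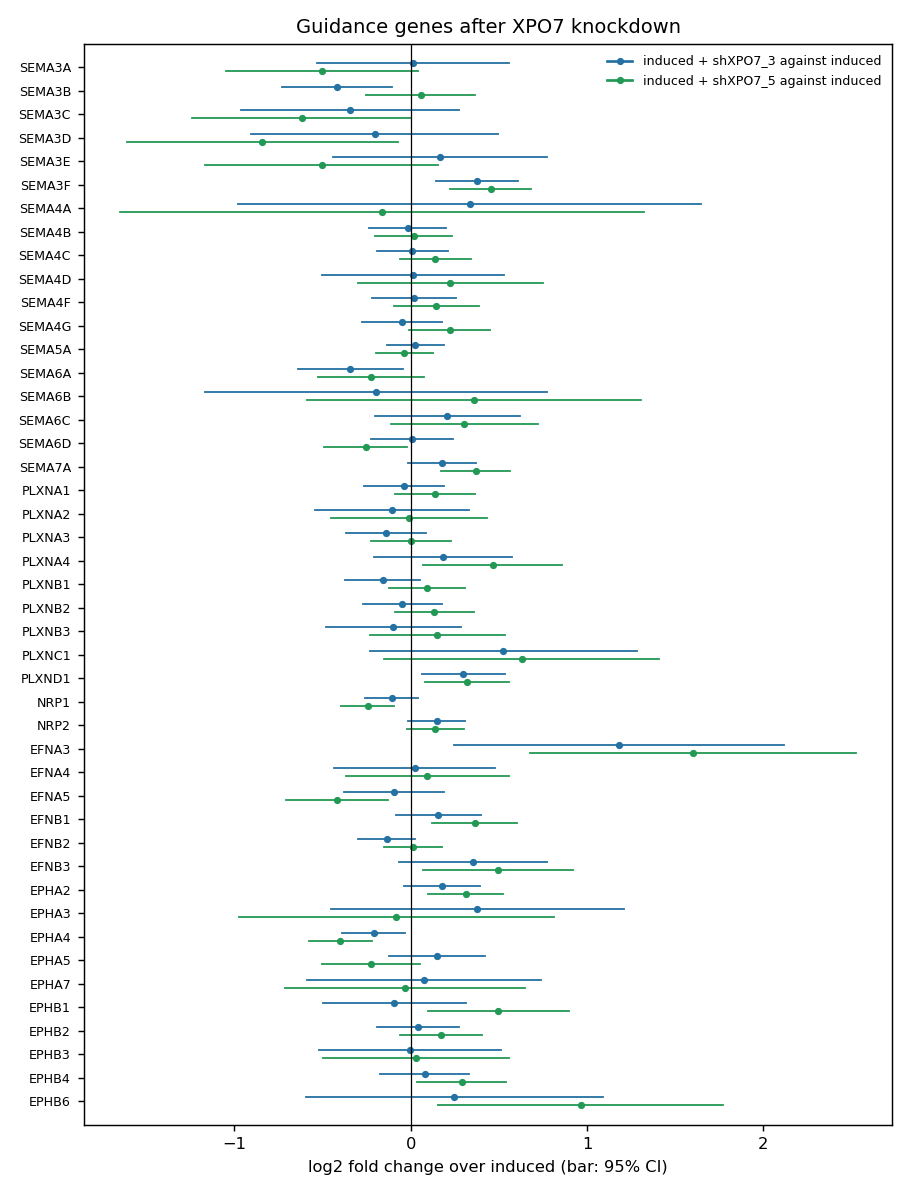
The log2 fold change over induced cells (x axis) with shXPO7_3 and shXPO7_5 for 45 of the 46 genes tested, with 95% confidence intervals as bars. EPHA1 is left out for its wide interval. Most bars cross 0, and EFNA3 had the highest value with either shRNA, 1.183 and 1.60.

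SEMA7A was at 925, 774 and 823 CPM with shXPO7_3 and at 985, 849 and 1043 CPM with shXPO7_5, each value above the 3 induced libraries (736 to 756 CPM). The log2 fold changes were 0.18 (SE 0.090, adjusted p = 0.844) and 0.37 (SE 0.090, adjusted p = 0.0854), and DESeq2 called the second (0.39, adjusted p = 0.019). PLXNC1 remained low, at 20, 8 and 37 counts with shXPO7_3 and 16, 24 and 12 counts with shXPO7_5.

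EPHA4 was at 63.1, 70.9 and 69.0 CPM with shXPO7_3 and at 60.1, 64.0 and 53.9 CPM with shXPO7_5, below the 3 induced libraries and above the non-induced ones in every case. The log2 fold changes were -0.21 (SE 0.082, adjusted p = 0.634) and -0.40 (SE 0.083, adjusted p = 0.0528), and DESeq2 called the second (-0.38, adjusted p = 0.00585). SEMA3F was at 59.0, 49.9 and 48.5 CPM with shXPO7_3 and 54.6, 49.4 and 61.9 CPM with shXPO7_5, each above the induced libraries (40.0 to 41.1 CPM) and within or near the non-induced range (48.5 to 58.5 CPM). Its log2 fold changes were 0.38 (SE 0.11, adjusted p = 0.306) and 0.45 (SE 0.11, adjusted p = 0.0785), and DESeq2 called the second (0.47, adjusted p = 0.00903).

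PLXND1 was at 93.3, 78.7 and 81.9 CPM with shXPO7_3 and 89.0, 73.6 and 94.8 CPM with shXPO7_5, above the induced and below the non-induced libraries (log2 fold changes 0.30 and 0.32, adjusted p = 0.563 and 0.17). EFNA3, at 3, 3 and 4 counts in the induced libraries, had 6, 9 and 11 counts with shXPO7_3 and 10, 9 and 8 counts with shXPO7_5 (adjusted p = 0.571 and 0.103). NRP1 was at 331, 359 and 350.3 CPM with shXPO7_3 and at 328, 335 and 285 CPM with shXPO7_5, below every induced library (log2 fold changes -0.11 and -0.24, adjusted p = 0.999 and 0.124). EPHA2 and EFNB1 were higher by 0.31 and 0.36 on the log2 scale with shXPO7_5 (adjusted p = 0.152 and 0.14), and by 0.18 and 0.16 with shXPO7_3 (adjusted p = 0.923 and 0.999). These 5 genes had the same sign with both shRNAs, but none of the differences passed the adjusted test. They were chosen after their values were seen, and both comparisons share the 3 induced libraries. The shared sign is therefore not independent evidence from a second shRNA.

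Libraries with shXPO7_3 did not overlap the induced ones in 6 genes that were higher and 4 that were lower, where 7.46% and 7.15% of all genes tested did so. For shXPO7_5 the numbers were 12 and 5, against 14.2% and 12.6% of all genes. None of the listed partners of either family was called in any of the 3 knockdown comparisons.

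Within the shXPO7_5 group the class 3 semaphorins of chromosome 7 separated the libraries. SEMA3A was at 191, 308 and 179 CPM and SEMA3C at 82.7, 156 and 83.2 CPM, so that library A lay near the induced level while T and B lay within the non-induced range. In shXPO7_3 it was library T that stood lower, with 235, 361 and 373 CPM of SEMA3A and 90.5, 142 and 156 CPM of SEMA3C. The log2 fold changes over induced cells were -0.50 (SE 0.25, adjusted p = 0.249) for SEMA3A and -0.62 (SE 0.28, adjusted p = 0.233) for SEMA3C with shXPO7_5, and 0.012 and -0.34 with shXPO7_3 (adjusted p = 0.999 for both). Without library A of shXPO7_5, 7 members were called higher and 6 lower, SEMA3A (-0.79) and SEMA3C (-0.98) among the latter, when 23% of all genes tested were called. These were the most negative values of the 14 alternative fits described below. At the other end the log2 fold changes were -0.15 for SEMA3A and -0.35 for SEMA3C, and each gene was called in only 1 of the 14.

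Base composition was set beside these values, and its part in them was not tested. Transcripts of the 46 genes had a median GC content of 57.3%, against 47.9% over all genes tested, whereas those of SEMA3A, SEMA3C, SEMA3D and SEMA3E had 36.7%, 39.4%, 34.9% and 38.0%. Across the 46 genes, which share libraries and are not replicates, Spearman's rho between GC content and the log2 fold change was -0.24 for induction, 0.087 for shXPO7_3, 0.59 for shXPO7_5 and 0.62 between the shRNAs. Over all genes tested it was 0.11 for shXPO7_3 and 0.68 for shXPO7_5. Relative to the mean of its own group, the rho of gene level on GC content was 0.58, -0.13 and -0.63 in non-induced libraries T, A and C. It was -0.18, -0.20 and 0.31 in induced libraries T, A and B. In shXPO7_3 libraries T, A and B it was 0.66, -0.57 and -0.47, and in those of shXPO7_5 0.21, -0.70 and 0.72. Relative to the mean of all 12 libraries, rho was 0.26, 0.0043 and -0.21 in the non-induced libraries. On that scale the induced libraries had -0.36, -0.37 and -0.19. The shXPO7_3 libraries T, A and B had 0.36, -0.49 and -0.44, and those of shXPO7_5 had 0.45, -0.26 and 0.68.

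With the same GC content and length offset, SEMA3F (0.35, adjusted p = 0.00267), SEMA7A (0.16, adjusted p = 0.0473) and PLXND1 (0.26, adjusted p = 0.0373) were called higher for shXPO7_3, where 2.22% of all genes were called. For shXPO7_5, where 3.08% of all genes were called, SEMA3F (0.23, adjusted p = 0.0246) and SEMA7A (0.17, adjusted p = 0.0296) were called higher and EPHA4 lower (-0.30, adjusted p = 0.00502). Between the shRNAs no member and 0.288% of all genes were called with the offset. For shXPO7_5 the values of SEMA3F and SEMA7A shrank from 0.45 and 0.37 to 0.23 and 0.17. That of EPHA4 was also smaller in size than without the offset, at -0.30. The reason for these changes was not tested.

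**Figure D5:**
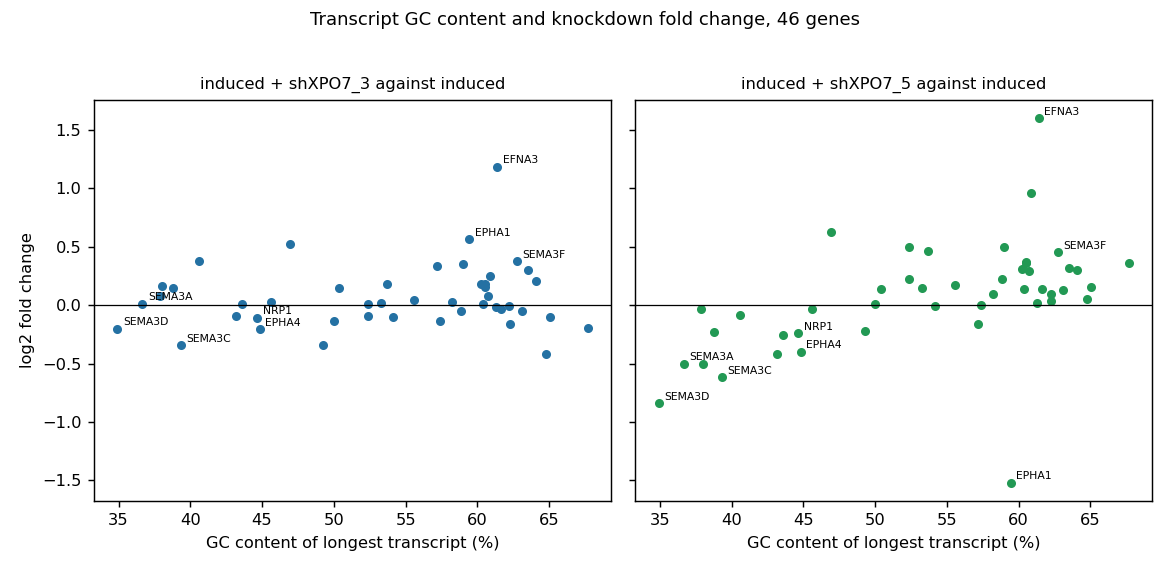
The log2 fold change over induced cells (y axis) against the GC content of the longest transcript in percent (x axis) for the 46 genes tested, with shXPO7_3 on the left and shXPO7_5 on the right. On the right the points rise with GC content (Spearman's rho 0.59), from SEMA3D at 34.9% GC and -0.84 upward, with EPHA1 apart at the bottom, and on the left they do not (rho 0.087).

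The libraries with an shRNA were also set against the non-induced cells. Of the 34 genes called for induction, the 3 shXPO7_3 libraries all lay beyond the non-induced libraries on the induced side in 31 (91.2%), the 3 shXPO7_5 libraries in 26 (76.5%), and all 9 induced libraries of any kind in 26. Of all 7777 genes called for induction, the shares were 90.3% for shXPO7_3, 82.7% for shXPO7_5 and 79.5% for all 9 libraries. The members' share was slightly above this background for shXPO7_3 and below it for the other two, and these differences were not tested. The 8 genes in which some library came back into the non-induced range were SEMA3A, SEMA3C, SEMA3F, EPHB1, EPHB4, EPHB6, EFNA3 and PLXNB2. SEMA7A, PLXNC1, SEMA3D, SEMA3E, SEMA6D, PLXND1, NRP1, EPHA4, EPHA5, EPHA7, EPHB3 and EFNB3 were among the 26. The shXPO7_5 means were 959 ± 99.7 CPM for SEMA7A, 101 ± 11.8 CPM for SEMA6D and 59.3 ± 5.07 CPM for EPHA4, against 99.8 ± 8.02, 45.1 ± 5.10 and 38.2 ± 2.14 CPM in non-induced cells.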

How the data were processed

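RNA-seq libraries of IMR90 ER:RAS cells were analysed in 4 groups of 3, taken from the sample titles. The authors deposited raw counts of reads per gene without normalization. Tools listed in the notes of the submitters were CASAVA 1.8.4, TopHat2 2.0.11 and featureCounts 1.18.0, with hg19/GRCh37 as the build. For the annotation, the strand setting and multimapping reads nothing was found in the sources used here, so reads of a gene and its antisense partner, or of near-identical family members, may not be fully separated. The sources used here name no test for differential expression.

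Counts were analysed with edgeR 4.0.16 (R 4.3.3). Genes were kept by filterByExpr (15284), scaled by TMM, and tested by quasi-likelihood over all 12 libraries with Benjamini-Hochberg adjustment over the genes tested. A gene was called at an adjusted p under 0.05. CPM are TMM-scaled. The 92 spike-in entries, all 0, were left out. An exact two-sided permutation test of 3 against 3 libraries cannot give a p below 0.1 and so was not used for calls.

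Members and lists were chosen with earlier results of these data known. Values by library are given for called members with a log2 fold change of 1 or more, and the rest by counts, range and the most abundant examples. Members described for the knockdowns without being called were chosen after their values were seen. Partner genes named were the 4 called each way with the largest change among those averaging 2 or more in log2 CPM. Symbols (49268 genes, 99.49% of counts), transcript length and GC content (97.3% of genes tested) were matched by Ensembl identifier to GENCODE release 29 on GRCh38. The fit was also run on counts simulated from its own means and spread. The simulated libraries held no trend on GC content, so that run cannot tell how calls behave where libraries have such trends. The alternatives tried were no filter beyond 1 count, upper-quartile factors, RLE factors, a replicate block, an offset for GC content and length (spline, 5 degrees of freedom), both together, each library left out in turn, a fit of the 2 groups alone, DESeq2 1.42.0 and a minimum log2 fold change of 1.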

Additional observations from a re-analysis of the deposited data

How the results depend on the processing

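For induced against non-induced cells, 32 of the 34 called members stayed called in each of the 14 alternatives that tested them, with the direction kept in all 34. The exceptions were EPHB1 and PLXNB2, and EFNA3 was not tested with only the 2 groups compared. In at least 1 alternative 8 further members were called, EPHA1, PLXNA1, PLXNB1 and EFNA5 lower and SEMA4B, EPHB2, EFNB1 and NRP2 higher. A minimum log2 fold change of 1 is not among these 14. Under it 8 members were called higher and 13 lower, and 2573 genes were called. Upper-quartile factors moved the median over all genes to -0.10 (log2) and the share of calls that were higher from 48.8% to 38.3%. The GC content and length offset made it 54.6%.

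For shXPO7_3 against induced, 19 genes were called, against 8 with upper-quartile factors, 30 without a filter beyond 1 count, 339 with the GC content and length offset, 386 with that offset and the replicate block, 2 with only the 2 groups compared, 82 by DESeq2, 2 with a minimum log2 fold change of 1 and 1 with any 1 library of either group left out. Members called were 3 higher with the offset, and 3 higher and 2 lower with offset and block.

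For shXPO7_5 against induced, 90 genes were called, against 217 without a filter, 149 with the replicate block, 470 with the offset, 955 with offset and block, 10 with only the 2 groups compared, 433 by DESeq2 and 8 with a minimum log2 fold change of 1. With a library left out the count ran from 2 to 3634, the highest without replicate A of shXPO7_5, where 7 members were called higher and 6 lower and none with any other library left out (0 to 7 and 0 to 6). Members called were 2 higher and 1 lower without a filter, 1 and 1 with the replicate block, 2 and 1 with the offset, 2 and 2 with offset and block, and 2 and 1 by DESeq2. SEMA7A and EPHA4 were called under each of these settings.

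Between the shRNAs, 2 genes were called, against 20 without a filter, 44 with the offset, 58 with offset and block, 0 with only the 2 groups compared, 27 by DESeq2, 0 with a minimum log2 fold change of 1 and 1 to 4 with a library left out. The cause of these changes was not tested. Replicate letters did not pair the libraries consistently (correlations of deviations from -0.23 to 0.59), so the block is given only here. Members with at most 20 counts per library (SEMA4A, EFNA3, most libraries of SEMA6B and EPHB6) rest on few reads.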

Other observations

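The count table also held 9 non-coding entries named after members (antisense or long intergenic RNAs), which are not members. Summed over the 3 libraries of a group, SEMA3F-AS1 had 34 counts in non-induced cells and 7, 7 and 5 in induced, shXPO7_3 and shXPO7_5 cells, PLXNB3-AS1 had 31, 13, 12 and 23, EPHA5-AS1 had 18, 25, 19 and 12, and EPHA2-AS1 had 18, 17, 17 and 20. None of the other 5 had more than 29 counts over all 12 libraries. These counts were too few to compare between groups, and the strand setting of the counting is not given in the sources used here.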
